A study of Mus musculus with 4 samples.

Results

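Liver sinusoids are lined by a fenestrated endothelium, and 10 genes that mark these cells were followed across liver arrays of wild-type and PPARα-null mice: Clec4g, Stab2, Lyve1, Mrc1, Fcna, Aqp1, Pecam1, Kdr, Tek and Eng. They were taken by gene symbol, with every probe set annotated to them, which gave 13 of 22626 probe sets and 10 of 12393 named genes. RNA came from livers of male mice aged 12 to 20 weeks, either wild-type (129S1/SvImJ) or PPARα-null (129S4/SvJae), so genotype and substrain cannot be told apart. PPARα-null mice are called null mice from here on. Chow held 0.1% w/w Wy14643 (written WY14643 in the labels), a synthetic PPARα agonist, or no agonist, for 5 days. The design names 5 mice for each of the 4 groups, and their RNA was pooled within the group onto 1 Affymetrix MOE430A array, although the study's text is not uniform on the number of mice in a pool. A single array per group gives no replicate check, so no ratio carries a p-value or an error, and precision is limited by how few arrays there are. For the array titled as wild-type on Wy14643, the free text is that of a control, and the title was followed.

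Sinusoidal endothelial cells filter plasma through open pores and clear waste macromolecules from blood with scavenger and lectin receptors. Stab2 and Lyve1 bind hyaluronan, Mrc1 (the mannose receptor) and Clec4g are lectins, and Fcna encodes ficolin A, a lectin of the complement system. Kdr is the main signalling receptor for VEGF, Tek the receptor for angiopoietins, and Eng a co-receptor for BMP9 and TGF-β. Pecam1 is an adhesion molecule of endothelial junctions, and Aqp1 a water channel. The markers are not exclusive: macrophages also express Mrc1 and Fcna, and bile duct cells and red cells also express Aqp1. In whole liver RNA, fewer endothelial cells and less RNA per endothelial cell cannot be told apart.

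All values below are intensities that the authors computed with GCRMA, on the linear scale. Background was set at 15.3, which 90% of 55 probe sets for 38 genes silent in liver do not exceed, and close to 48% of probe sets on each array lay above it. Ppara itself read 847 and 1250.1 in the wild-type pools on control chow and Wy14643 and 326 and 428 in the null pools, 2.60-fold and 2.92-fold apart, and the sources used here do not say whether its probe set covers the deleted exon. All 12 measured hepatocyte markers were above background on all 4 arrays. Of the 10 endothelial markers, 7 were above background on all 4 arrays, Lyve1 and Kdr on some of them, and Pecam1 on none.

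Promoter sequence is shown for 4 markers, Clec4g, Mrc1 and Aqp1, each over 3-fold lower on Wy14643 in null mice, and Stab2, which differed little between diets. Fcna, with a decrease of like size, is not printed because its window lies within a longer annotated transcript. RefSeq windows of 300 bases on GRCm38.p6, with 250 bases before a gene's start and 50 after it, were at hand for 8 of the 10 markers; Lyve1 and Pecam1 were not among them. The bases printed are those before the outermost annotated start, 5′ to 3′ on the gene's strand. Capitals mark AGGAAG, which holds the core bound by ETS factors, a family of transcription factors that act in endothelium among other tissues, and AGGTCA, the repeat unit of PPAR binding sites, on either strand. The first lies at chr8:3720696-3720901 (minus strand), the next at chr2:14229164-14229413 (plus strand) and chr6:55336049-55336298 (plus strand), and the last at chr10:87008039-87008192 (minus strand).
Clec4g: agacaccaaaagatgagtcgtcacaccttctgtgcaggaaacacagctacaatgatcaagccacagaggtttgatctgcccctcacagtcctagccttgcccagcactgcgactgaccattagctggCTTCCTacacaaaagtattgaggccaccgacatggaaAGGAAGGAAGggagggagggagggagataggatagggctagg
Mrc1: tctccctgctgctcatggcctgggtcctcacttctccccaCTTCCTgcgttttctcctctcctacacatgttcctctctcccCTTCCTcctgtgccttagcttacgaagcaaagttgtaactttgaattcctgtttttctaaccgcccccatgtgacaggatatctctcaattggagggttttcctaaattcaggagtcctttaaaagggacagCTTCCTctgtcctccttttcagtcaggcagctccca
Aqp1: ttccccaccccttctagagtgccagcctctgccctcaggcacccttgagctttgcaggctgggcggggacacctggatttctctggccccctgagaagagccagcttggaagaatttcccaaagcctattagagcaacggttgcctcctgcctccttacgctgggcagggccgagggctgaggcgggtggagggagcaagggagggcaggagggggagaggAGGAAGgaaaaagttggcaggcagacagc
Stab2: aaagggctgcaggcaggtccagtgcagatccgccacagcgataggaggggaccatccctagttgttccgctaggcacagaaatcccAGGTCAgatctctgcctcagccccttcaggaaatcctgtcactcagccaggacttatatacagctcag
In the whole windows, AGGAAG was found in 6 of 8 markers, against 35.4% of 32851 promoter windows of the same length. The windows of Fcna, which is among the 6, and of Kdr, which is not, lie within longer annotated transcripts. In Clec4g, neighbouring matches overlap. AGGTCA, which is part of the DR1 element, was found in Stab2 alone, against 16.3% of all windows. The full PPAR element, DR1 (2 AGGTCA units with 1 base between them), was in 0 of 8 markers, against 0.0396% of all windows, and the longer ETS site CCGGAAGT likewise in 0 of 8, against 3.89%. A match of letters describes the sequence and is not a measured binding site.

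The first comparison asks what Wy14643 does to the endothelial markers in mice that lack its receptor. In null livers, 6 of the 10 markers were at least 1.5-fold lower on Wy14643 than on control chow: Aqp1, Clec4g, Fcna, Mrc1, Tek and Eng. None was higher. Over all genes with a ratio in this comparison (either array over background), 4.37% were lower by that fold and 2.11% higher. The median log2 ratio was -0.87 over the 9 markers with a ratio and 0.00 over all genes.

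Aqp1 had an intensity of 307 in null controls and 76.5 in null mice on Wy14643, against 248 in wild-type controls and 167 in wild-type mice on Wy14643. The null Wy14643 array was thus the lowest of the 4, and Aqp1 was 4.01-fold lower there than in null controls. Clec4g, the lectin known from sinusoidal endothelium, stood at 296 in null controls and 81.0 on Wy14643, and at 315 and 152 in wild-type mice on the same diets. Both Wy14643 arrays lay below both control arrays, with a 3.65-fold difference in null mice. A second Clec4g probe set was below background on all 4 arrays (7.54 to 8.95) and gave no ratio; with the median over both, the log2 ratio in null mice was -0.84 in place of -1.87.

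Mrc1 had the same order of arrays as Aqp1. Its intensity was 864 in null controls, 275 in null mice on Wy14643, 754 in wild-type controls and 502 in wild-type mice on Wy14643, which made it 3.14-fold lower on Wy14643 without PPARα. Fcna had 114 in null controls, 35.1 in null mice on Wy14643, 61.1 in wild-type controls and 30.2 in wild-type mice on Wy14643. It was 3.25-fold lower on Wy14643 in null mice, and the null control array stood above the other 3.

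The signalling receptors differed by smaller ratios. Tek had intensities of 54.2 in null controls and 29.6 on Wy14643, a 1.83-fold decrease, and of 37.2 and 42.5 in wild-type mice. Eng had 211 in null controls and 134 on Wy14643, a 1.58-fold decrease, with 196 and 180 in wild-type mice. A dimmer Eng probe set gave 36.0 and 20.5 in null mice (1.76-fold lower) and 29.0 and 25.7 in wild-type mice, the same order as the brighter one. For Tek and Eng, as for Aqp1, Clec4g and Mrc1, the lowest of the 4 arrays was that of null mice on Wy14643. With 32 added to every intensity, Tek (-0.48) and Eng (-0.55) stood under 1.5-fold on the log2 scale.

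The other 4 markers did not pass 1.5-fold in null mice, and they included both hyaluronan receptors. Stab2 had intensities of 196 in null controls and 188 on Wy14643, and of 167 and 139 in wild-type mice. Its log2 ratio of Wy14643 to control was -0.06 in null and -0.26 in wild-type mice. Lyve1 lay close to background, at 19.5 and 21.6 in null mice on control diet and Wy14643 and at 14.3 and 16.7 in wild-type mice. Its second probe set read between 13.8 and 17.7 on the 4 arrays. Kdr was above background on the control arrays only, at 17.3 in wild-type and 16.9 in null mice, against 12.8 and 9.36 on Wy14643. It was therefore at least 1.13-fold lower on Wy14643 in wild-type and at least 1.10-fold lower in null mice. Pecam1 read between 9.52 and 12.8, below background on each array, so it carries no ratio.

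**Figure D1:**
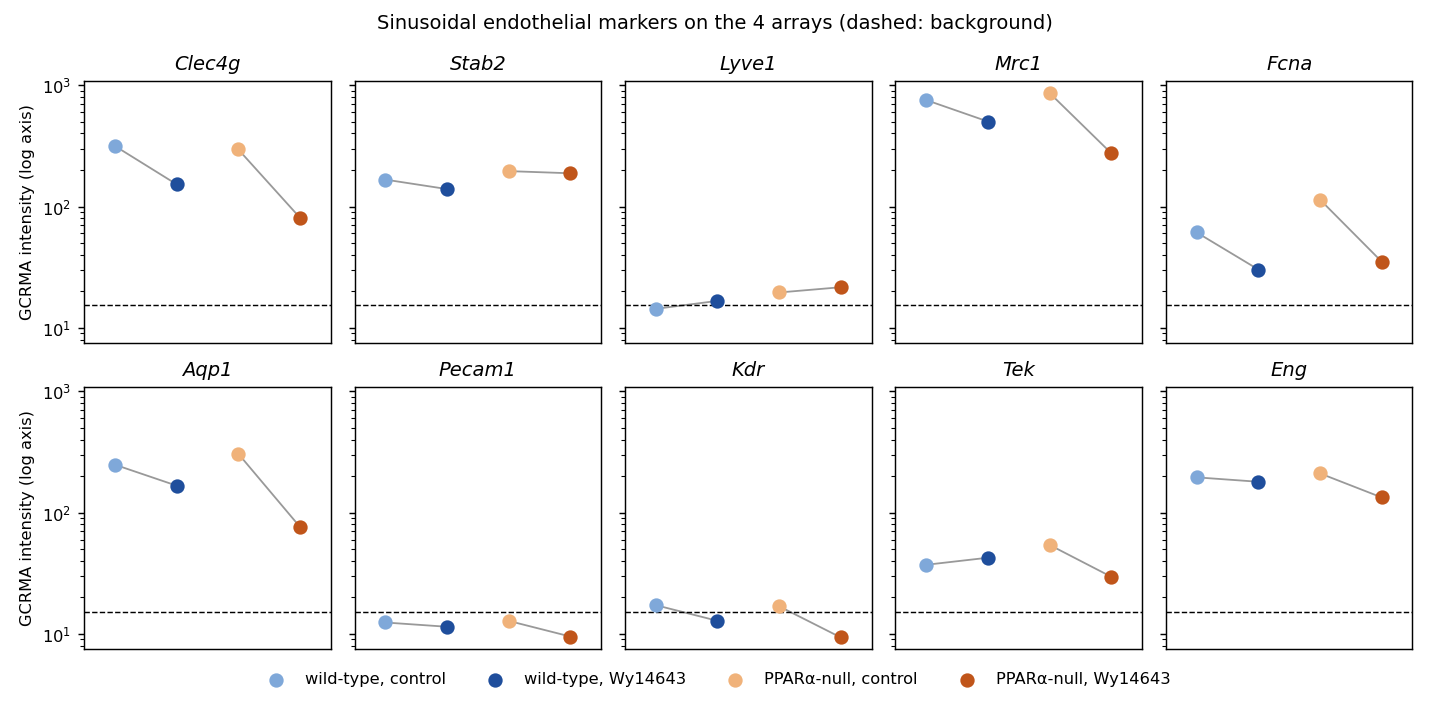
GCRMA intensity (log axis) of the brightest probe set of each marker on the 4 arrays; each point is 1 array of pooled RNA, lines join the diets of a genotype and the dashed line is background at 15.3. Clec4g, Mrc1 and Aqp1 are lowest in null mice on Wy14643, and Stab2 differs little between diets.

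In wild-type mice, in which the agonist can act through its receptor, fewer markers passed the fold. Clec4g was 2.07-fold and Fcna 2.02-fold lower on Wy14643 than on control chow, and Mrc1 was lower by a log2 ratio of -0.59, just past the threshold. Aqp1, at -0.57, lay just short of it. Thus 3 of 10 markers were lower and 0 higher, where 16.3% of all genes with a ratio were lower and 15.2% higher, and the median log2 ratio of the markers was -0.26. With 32 added to every intensity, which damps dim probe sets, only Clec4g remained past 1.5-fold in wild-type mice. Tek stood at a log2 ratio of 0.19, Eng at -0.12 and Lyve1 at 0.12 or above.

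The comparisons within wild-type and within null mice share no array. Clec4g, Mrc1 and Fcna were lower on Wy14643 in both genotypes, which is 3 of 9 markers with a ratio in each, against 1.82% of 6598 genes. Another 3 (Aqp1, Tek and Eng) passed the fold in null mice alone, against 2.67% of genes. Among the 7 markers above background on all 4 arrays, the response to Wy14643 was lower in null than in wild-type mice by a ratio of at least 1.5 for 5, where 18.2% of 5952 genes showed this and 17.8% the reverse. The log2 response of wild-type minus that of null mice was 1.43 for Aqp1, 1.07 for Tek, 1.06 for Mrc1, 0.82 for Clec4g and 0.68 for Fcna (for Clec4g 0.21 with the median over its probe sets), and it was 0.54 for Eng and -0.20 for Stab2. With 1 array per group, the difference between the genotypes could not be tested. A decrease in both genotypes was not particular to these markers. Of the lists taken up below, it was seen in 8 of 11 Kupffer cell markers and 5 of 15 other sinusoidal genes with both ratios. It was seen in 1 of 10 stellate cell markers, 0 of 12 hepatocyte markers and 0 of 6 genes of endothelium of any vessel. Genes of the VEGF and angiopoietin systems had 1 of 8, and those of BMP and TGF-β signalling 3 of 15.

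**Figure D2:**
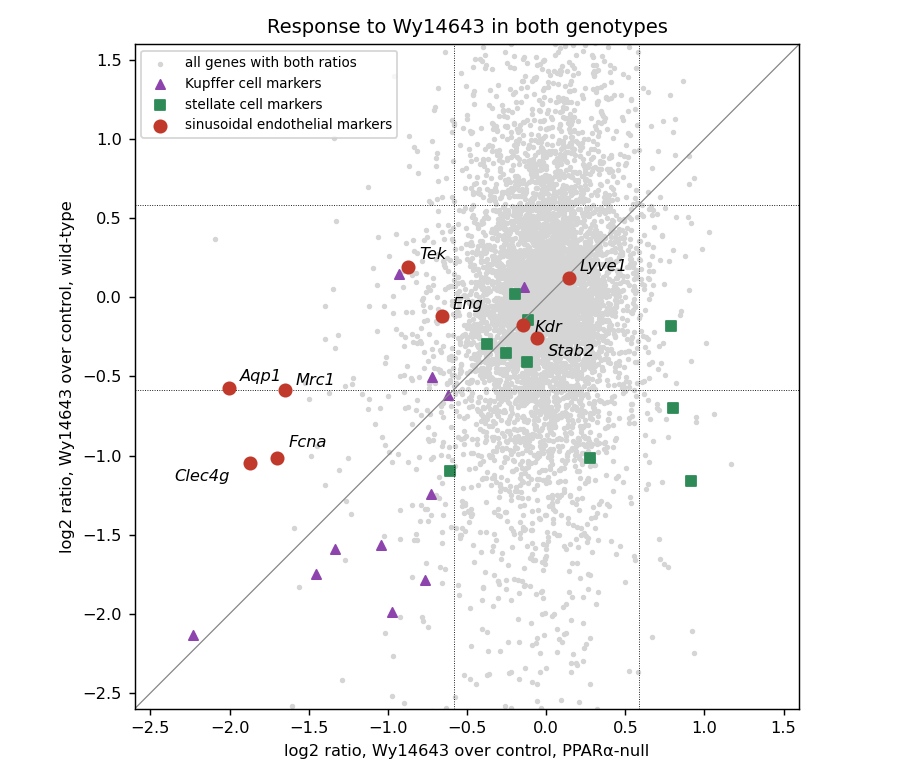
Log2 ratio between diets (Wy14643 over control), with null mice on the horizontal and wild-type mice on the vertical axis, for 6598 genes with both ratios (244 lie outside the axes), with the markers of 3 cell types; dotted lines mark 1.5-fold, the diagonal equal ratios, and Kdr and Lyve1 are at their smallest ratio. Aqp1, Mrc1, Clec4g and Fcna lie left of the diagonal, with log2 ratios of -1.65 or lower in null mice.

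Most macrophage markers were also lower on Wy14643. Their median decrease was larger in wild-type mice, and that of the endothelial markers in null mice, but single macrophage markers were split on this. Of the 14 measured markers of Kupffer cells, the macrophages that sit in the sinusoids, 10 were lower on Wy14643 in null mice and 8 in wild-type mice, out of 11 with a ratio, and 0 were higher in either (median log2 ratios -0.93 and -1.57). Vsig4 was 4.69-fold lower on Wy14643 in null mice, the lowest ratio of all genes there (log2 ratio -2.23), and 4.39-fold lower in wild-type mice. Cd5l was 1.97-fold lower in null and 3.96-fold lower in wild-type mice, Csf1r 1.70-fold and 3.45-fold, and C1qc 2.74-fold and 3.36-fold. These genes are named for their large ratios in wild-type mice, so they cannot show in which genotype the list decreased more. Adgre1 was 1.65-fold lower in null and 1.42-fold lower in wild-type mice, and C1qb 1.54-fold and 1.53-fold. Marco, Cd68 and Folr2 were below background on every array. The summed intensity of the Kupffer cell list was 3177 on the wild-type control array and 2697 on the wild-type Wy14643 array. It was 3642 on the null control array and 1916 on the null Wy14643 array. Most of it came from the iron exporter gene Slc40a1 (1983, 2192, 2227 and 1167 in that order), which is not confined to macrophages. The sums therefore mainly reflect Slc40a1 and do not describe the other markers of the list. The part of these cells in the Mrc1 and Fcna values was not tested. Leaving out Mrc1 and Fcna, 4 of the other 8 endothelial markers were lower in null mice (median -0.66) and 1 in wild-type mice (median -0.17). Of 10 Kupffer cell markers above background throughout, 1 (Slc40a1) had the lower response in null mice and 2, Cd5l and Csf1r, in wild-type mice, close to the shares of all genes (18.2% and 17.8%). Gene by gene, the median of wild-type minus null over these 10 was only -0.13, against 0.82 for the endothelial markers.

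Few markers of hepatocytes and stellate cells were lower in null mice on Wy14643. Hepatocyte markers had 0 of 12 lower there and stellate cell markers 1 of 11 lower and 3 higher. In wild-type mice 5 of 12 hepatocyte and 4 of 10 stellate cell markers were lower on Wy14643. Bile duct cells and red cells, which also carry Aqp1, gave few ratios. Of 7 measured bile duct markers 3 had a ratio in each genotype, with 0 lower on Wy14643 in either and 1 higher in each. Of the red cell markers, 0 of 2 were lower in wild-type and 0 of 3 in null mice, where 1 was higher. A single lymphocyte marker of 11 measured had a ratio, and it was neither lower nor higher by 1.5-fold.

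Genes of endothelium outside the 10 markers were counted from lists of their own, without the 10. The list for the sinusoidal type had 23 measured genes, not all of them confined to these cells. Of these, 16 had a ratio in null mice, with 8 lower on Wy14643 and 0 higher (median log2 ratio -0.51). In wild-type mice 15 had a ratio, with 6 lower and 0 higher (median -0.38). Fcgr2b, the inhibitory Fc receptor that clears immune complexes, was 2.63-fold lower in null and 2.27-fold lower in wild-type mice. Bmp2, a ligand that sinusoidal cells send to hepatocytes, was 2.80-fold and 2.01-fold lower, and the nuclease gene Dnase1l3 1.86-fold and 1.62-fold lower. Fcgr2b and Dnase1l3 are expressed by macrophages as well. Genes found in endothelium of any vessel were dim, with 18 of 26 below background on all arrays. Among them, 2 of 8 with a ratio were lower in null mice and 2 of 6 in wild-type mice, and 0 were higher. Plvap, which builds the diaphragms of endothelial pores, was 2.10-fold lower on Wy14643 in wild-type mice and stood at a log2 ratio of 0.02 in null mice. S1pr1, a receptor for sphingosine 1-phosphate, was 1.98-fold lower in wild-type mice and stood at -0.47 in null mice. Esam went the other way, with 32.4 on the null control array and 19.5 on the null Wy14643 array, a 1.66-fold decrease. Its wild-type log2 ratio was -0.06. Fli1, also counted as lower in null mice, exceeded background on the null control array alone (33.1). Of the other sinusoidal genes, 2 of 11 above background on all 4 arrays had the lower response in null mice and 0 the higher, against 18.2% and 17.8% of all genes, with a median of wild-type minus null of 0.19 against 0.82 for the markers.

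**Figure D3:**
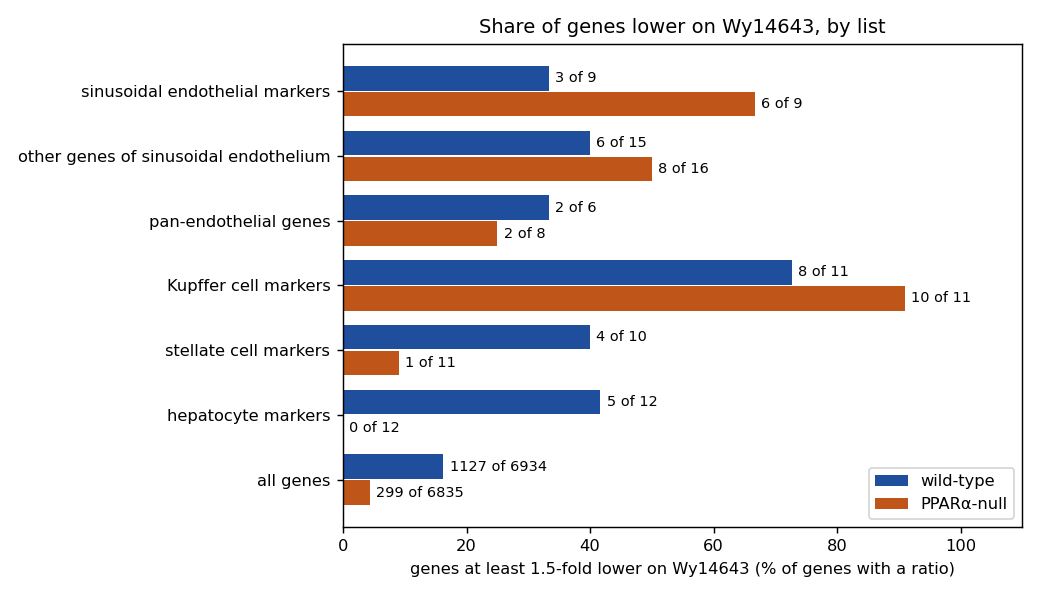
Share of genes at least 1.5-fold lower on Wy14643 than on control chow, as a percentage of genes with a ratio, for each list in wild-type (blue) and null mice (orange), with the counts beside each bar. The 10 markers have 6 of 9 lower in null and 3 of 9 in wild-type mice, against 4.37% and 16.3% of all genes.

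Partners of the 3 signalling receptors were counted the same way. Of 14 measured ligands and receptors of the VEGF and angiopoietin systems other than Kdr and Tek, 8 had a ratio in wild-type mice, with 1 higher and 1 lower on Wy14643 (15.2% and 16.3% of all genes), and 9 in null mice, with 2 lower and 0 higher. The VEGF co-receptor gene Nrp2 was higher on Wy14643, by 2.25-fold in wild-type mice, and stood at 1.27-fold in null mice. It was dim, with 17.8 in wild-type controls, close to background, and 39.9 in wild-type mice on Wy14643. Ptprb, an endothelial phosphatase that restrains Tek, was 1.61-fold lower in wild-type and 1.58-fold lower in null mice. Both VEGF and angiopoietin genes lower in null mice, Ptprb and Flt4, are also counted among the sinusoidal genes. Around Eng, 6 of 16 genes of BMP and TGF-β signalling were lower and 1 higher among wild-type mice on Wy14643, and 3 of 15 were lower and 0 higher in null mice. Id1, a target of BMP signals, was 2.88-fold brighter with Wy14643 among wild-type mice and stood at a log2 ratio of -0.21 in null mice. Its relatives went the other way in wild-type mice, Id2 being 2.40-fold and Id3 2.48-fold lower, as were Smad1 (2.56-fold), which carries the BMP signal, and the receptor gene Acvr1 (2.75-fold). In null mice Id3 was 1.73-fold lower, and Id2, Smad1 and Acvr1 lay between -0.33 and -0.22 on the log2 scale. Hepatocytes express genes of both lists, and Bmp2, Bmp6, Flt1, Flt4, Ptprb and Tie1 each stand in a pair of lists.

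On the control diet, the genotypes differed little in these markers. Fcna read 1.87-fold lower in the wild-type pool than in the null pool, and the other 8 markers with a ratio lay under 1.5-fold. That is 1 of 10 lower and 0 higher, against 2.51% and 2.40% of all genes. Tek came next at 1.46-fold lower in wild-type mice, while Clec4g differed by 1.06-fold. The median log2 ratio of wild-type to null mice was -0.23 over 9 markers and -0.03 over all genes, and 7 of the 9 were below 0. This was not particular to the markers. Kupffer cell markers had a median of -0.22 with 11 of 11 below 0, and genes of endothelium of any vessel -0.28 with 6 of 8. Stellate cell markers had -0.14 with 9 of 11, and the other sinusoidal genes -0.03 with 9 of 16.

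On Wy14643, the ratio of the genotypes was above 0 on the log2 scale for 5 of the 8 markers with a ratio, and for Aqp1, Mrc1, Tek and Eng it had been below 0 on the control diet. Aqp1 was 2.18-fold, Clec4g 1.88-fold and Mrc1 1.82-fold higher in wild-type than in null mice, so 3 of 10 were higher and 0 lower. Over all genes, 16.9% were higher and 18.2% lower in this comparison, so a count of 3 stands closer to the background than the counts within null mice do. The median over 8 markers was 0.47 on the log2 scale, against -0.02 over all genes. Tek (1.44-fold) and Eng (1.35-fold) were also brighter in wild-type mice, under the threshold. Stab2 (-0.43), Lyve1 (-0.37) and Fcna (-0.22) had log2 ratios below 0. Each of these ratios uses the null Wy14643 array, as does the comparison of diets in null mice, so the comparisons are not independent.

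**Figure D4:**
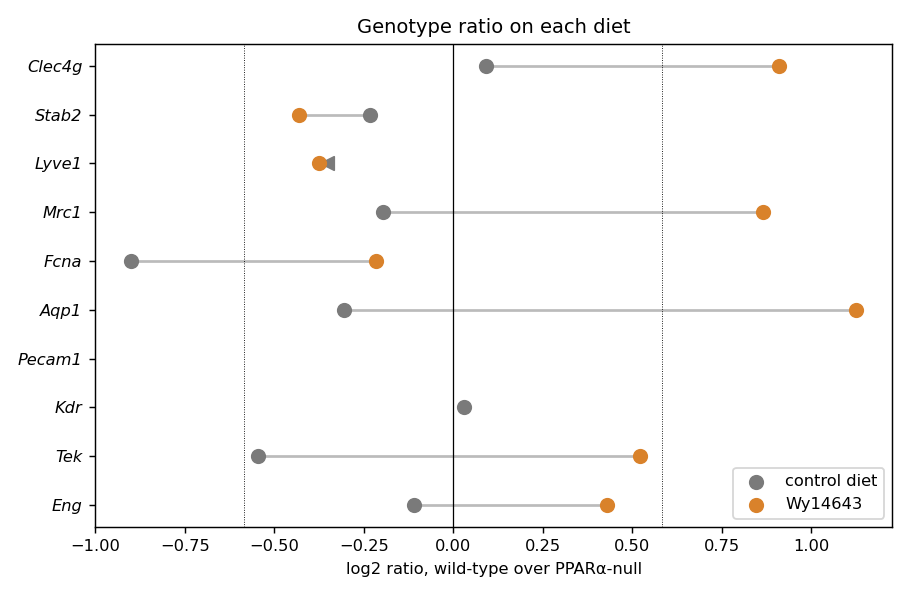
Log2 ratio of wild-type to null mice for each marker on the control diet (grey) and on Wy14643 (orange); dotted lines mark 1.5-fold and a triangle a smallest ratio where 1 array was below background. Aqp1 runs from -0.30 to 1.13 and Mrc1 from -0.20 to 0.87, and Pecam1 and Kdr lack ratios where both arrays were below background.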

How the data were processed

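Liver RNA of 4 groups of mice was hybridized to Affymetrix MOE430A arrays, 1 array of pooled RNA per group. The authors deposited intensities from GCRMA (2.20, from the submitters' processing notes), a method that removes background by probe sequence, brings all arrays to the same quantiles and combines the probes of each probe set. They run from 1.55 to 31270.2, on the linear scale. Quantile normalization forces equal distributions, so a shift shared by most genes could not be seen. Whether other arrays entered it is not stated.

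After 64 Affymetrix controls were left out, 22626 probe sets remained. GEO's platform annotation gave 20380 of them 1 gene symbol, 691 several and 1555 none. A gene is represented by its brightest probe set on average, and all probe sets of the 10 markers are reported. Ratios were taken on the log2 scale, and at least 1.5-fold (the methods' threshold) counts as higher or lower. A value below background on 1 array was taken at background, so the fold is the smallest possible; a gene below it on both has none. All markers are named, with Ppara and, from each other list, up to 4 genes above background with the largest ratio to Wy14643 in wild-type mice. Slc40a1, Adgre1, C1qb, Marco, Cd68, Folr2, Id2, Fli1, Flt4, Flt1, Tie1 and Bmp6 were chosen after their values were seen. The markers, lists and rules were chosen with earlier results of these data known. The lists cover other sinusoidal and pan-endothelial genes, VEGF and angiopoietin, endoglin and BMP signalling, and Kupffer, stellate, hepatocyte, bile duct, lymphocyte and red cell markers. Ratios and calls were tested on simulated data. Changes larger than 1.5-fold were planted there, only in genes well above background, so calls near the threshold or in dim genes were not covered. Alternatives were 32 added to every intensity, a floor at background, centring, cyclic loess, dropping probe sets with possible binding to several transcripts, the median over probe sets, each array's median or no background, and a ratio of 2. Software was Python 3.11.15, numpy 2.4.6, pandas 2.3.3, matplotlib 3.10.9, R 4.3.3 and limma 3.58.1.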

Additional observations from a re-analysis of the deposited data

Results flagged for a closer look

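In 4 markers the effects of a single contrast went opposite ways, and none of these differences could be tested with 1 array per group. Tek was brighter on Wy14643 in wild-type mice (log2 ratio 0.19) and dimmer in null mice (-0.87), a difference of -1.07; its ratio of wild-type to null mice was -0.54 on the control diet and 0.52 on Wy14643, a difference of 1.07, which is the same contrast read the other way. The ratio of wild-type to null mice also changed sign between the control diet and Wy14643 for Aqp1 (-0.30 and 1.13, a difference of 1.43), Mrc1 (-0.20 and 0.87, a difference of 1.06) and Eng (-0.11 and 0.43, a difference of 0.54). Over genes above background on all arrays, the standard deviation of this ratio was 0.33 on the control diet and 0.98 on Wy14643. The control-diet ratios of Aqp1, Mrc1 and Eng lie within that spread, so their sign there carries little weight. On Wy14643 the ratios of Mrc1, Tek and Eng likewise lie within the wider spread of that diet, and only that of Aqp1 lies beyond it.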

How the results depend on the processing

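No paired analysis was possible because each group has 1 array, and no replicate could be left out. In no alternative did a marker past 1.5-fold change sign. With 32 added to every intensity, 1 marker in place of 3 was lower on Wy14643 in wild-type mice. In null mice 4 in place of 6 were lower, and the median was -0.55. At a ratio of 2, the count of markers lower in wild-type than in null mice went from 1 to 0 on control chow, and that of markers higher in wild-type mice on Wy14643 from 3 to 1. By that ratio, 4 markers were lower on Wy14643 than on control chow in null mice and 2 in wild-type mice. Without Mrc1 and Fcna, an alternative chosen after seeing the data, 1 marker was lower on Wy14643 in wild-type mice, 0 were lower in wild-type than in null mice on the control diet, and 3 had the lower response in null mice; fewer markers are counted there. Over these settings the median log2 ratio on Wy14643 lay between -1.26 and -0.55 in null mice and between -0.42 and -0.17 in wild-type mice. With the median over probe sets, which brings in the Clec4g probe set below background, Clec4g had a log2 ratio of -0.84 in place of -1.87 on Wy14643 in null mice, of 0.38 in place of 0.91 between the genotypes on Wy14643, and a response difference of 0.21 in place of 0.82, where the genotype ratio and the response difference no longer reached 1.5-fold. With no background, Kdr was lower on Wy14643 in null mice (-0.85). Lyve1, Kdr and Pecam1 lie at or below background, where a decrease could not be measured in full.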
